A study of Homo sapiens with 30 samples.

Results

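The 8 genes described here are the metallothioneins MT1E, MT1F, MT1G, MT1M, MT1X and MT2A, the metal-responsive transcription factor MTF1 and the zinc exporter SLC30A1. They were chosen by gene symbol from count tables of 18460 genes for an endothelial and an epithelial human cell line grown together. Of the 8 genes, 6 were analysed, and 5 had enough counts to be tested in each line. MT2A, MT1X, SLC30A1 and MTF1 were tested in both lines, MT1E in EA.hy926 cells and MT1F in A549 cells. MT1E was too low to test in A549 cells, MT1F was too low to test in EA.hy926 cells, and MT1G and MT1M were not analysed here.

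EA.hy926 is a hybrid of umbilical vein endothelial cells and a clone of A549, and it sat on the basolateral side of the insert, away from the aerosol. A549 is a lung adenocarcinoma line and formed the apical layer that the aerosol reached directly. Both lines were kept in serum-free medium with HEPES and antibiotics and held for 4 h at an interface of air and liquid during exposure. SOANAP-SP was secondary organic aerosol from naphthalene aged together with soot particles, SOAβPIN-SP was the same from β-pinene, SP was fresh soot particles alone, and CA was clean air. At the single dilution used, the paper's estimate of deposited mass was highest with SOANAP-SP, lower with SOAβPIN-SP and lowest with SP. Amount and type of aerosol therefore cannot be told apart. Each line had 4 libraries for SOANAP-SP, 4 for SOAβPIN-SP, 3 for SP and 4 for CA. The EA.hy926 and A549 libraries of the same experiment and exposure shared that exposure. No label names the insert, so such a pair is taken below as coming from the same insert. The label of each library carries an experiment number. These were 42, 44, 46 and 49 for SOANAP-SP, 34, 35, 37 and 38 for SOAβPIN-SP, 52, 53 and 56 for SP, and 24, 38, 42 and 53 for CA. Each aerosol therefore shared a single experiment with CA, and in the remaining libraries aerosol and experiment cannot be told apart.

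Total counts per library were 10003314 to 16610686 in EA.hy926 cells and 7317041 to 15012539 in A549 cells. The labels were checked with 12 endothelial and 9 epithelial markers. The summed endothelial markers were at 2548 to 4049 counts for each 1e6 of the library (CPM) in EA.hy926 libraries, against 4.90 to 30.7 CPM in A549 libraries. The summed epithelial markers were at 1579 to 2122 CPM in EA.hy926 libraries, mostly from KRT7, KRT8 and KRT18, against 13844 to 18775 CPM in A549 libraries. The epithelial marker CDH1 had 2 counts in 1 of the 15 EA.hy926 libraries and 0 in the others, and the endothelial markers VWF and CLDN5 were low in EA.hy926 cells, at 0.653 to 2.48 CPM and 0 to 0.589 CPM. Levels below are CPM scaled by edgeR's TMM factors, a trimmed mean of log ratios between libraries, given in the order of replicates 1 to 4. A gene was called a DEG at a Benjamini-Hochberg adjusted p of 0.05 or less and an absolute log2 fold change of 0.5 or more in edgeR's quasi-likelihood test. Counts of genes at an unadjusted p under 0.05 are also given, a looser mark. The share of all genes at that mark was not counted, so these counts cannot be set against the share of genes called.

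Metallothioneins are small cysteine-rich proteins that bind zinc and copper and buffer the free metal inside the cell. Zinc that reaches the nucleus is sensed by MTF1, whose zinc fingers bind short metal response elements in front of the metallothionein genes and of SLC30A1. SLC30A1 (ZnT1) sits in the plasma membrane and moves zinc out of the cell, so that metallothionein and exporter transcripts are commonly read as the zinc response of a cell. Glucocorticoids also raise metallothionein transcripts, MT2A among them.

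The 6 metallothionein genes lie together on human chromosome 16 (GRCh38). MT2A is at chr16:56608584-56609497, MT1E at chr16:56625475-56627112, MT1M at chr16:56632659-56633981, MT1F at chr16:56657731-56660698 and MT1X at chr16:56682470-56684196, all on the plus strand, and MT1G is at chr16:56666730-56668065 on the minus strand. MTF1 (chr1:37809574-37859592) and SLC30A1 (chr1:211571568-211579161) are on the minus strand of chromosome 1. Metallothionein genes resemble each other, and only uniquely mapped reads were counted. Of all 50-base windows of a gene's transcripts, 18.7% also occurred in transcripts of another gene for MT1X, 7.1% for MT1E, 4.48% for MT2A, 1.24% for MT1F and 0% for SLC30A1. Counts of MT1X are therefore the least certain of these.

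The sequences in front of MT2A, MT1X and SLC30A1 are shown because the metallothionein and exporter transcripts are the ones whose levels differ below, and because they carry the motif of the metal response element. The 250 bases before the start site come from RefSeq (GRCh38.p14), at chr16:56608334-56608583 for MT2A and chr16:56682220-56682469 for MT1X, both on the plus strand, and at chr1:211579162-211579411 for SLC30A1 on the minus strand. Capitals mark matches to TGCACNC or TGCGCNC on either strand, and no match overlaps another.
MT2A: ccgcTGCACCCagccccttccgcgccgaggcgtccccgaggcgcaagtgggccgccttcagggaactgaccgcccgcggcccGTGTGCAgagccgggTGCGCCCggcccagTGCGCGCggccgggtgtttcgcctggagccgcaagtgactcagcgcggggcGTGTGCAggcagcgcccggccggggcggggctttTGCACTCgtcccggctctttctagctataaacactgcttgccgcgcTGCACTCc
MT1X: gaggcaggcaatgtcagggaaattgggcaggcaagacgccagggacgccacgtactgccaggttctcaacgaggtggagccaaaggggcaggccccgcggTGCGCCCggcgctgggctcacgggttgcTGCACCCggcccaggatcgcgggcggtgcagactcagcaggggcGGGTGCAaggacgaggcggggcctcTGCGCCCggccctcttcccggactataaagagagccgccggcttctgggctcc
SLC30A1: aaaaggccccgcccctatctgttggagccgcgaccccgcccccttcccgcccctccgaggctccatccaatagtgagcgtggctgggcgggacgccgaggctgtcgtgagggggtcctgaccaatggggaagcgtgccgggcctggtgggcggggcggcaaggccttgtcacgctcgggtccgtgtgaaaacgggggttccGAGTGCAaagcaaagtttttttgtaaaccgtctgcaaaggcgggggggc

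From 250 bases before to 50 bases after the start site, MT2A held 8 matches, MT1X held 4, SLC30A1 held 2 and MTF1 held 0. Over 35116 RefSeq promoters of the same length, 29.6% held at least 1 match, 8.6% at least 2, 0.601% at least 4 and 0.0199% at least 8. A match is a description of the letters and not a measured binding site. The promoter table matched 4 of the 8 genes, without MT1E, MT1F, MT1G and MT1M.

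Levels per kilobase of annotated exon placed MT2A above the other members in both lines. In EA.hy926 cells in CA the mean was 577 CPM per kilobase for MT2A, 74.7 for MT1E, 37.8 for MT1X, 26.7 for SLC30A1 and 3.72 for MTF1. In A549 cells in CA it was 198 CPM per kilobase for MT2A, 39.0 for SLC30A1, 11.6 for MT1X, 3.50 for MT1F and 2.24 for MTF1. The exon length joined the exons of all annotated transcripts, and for MT2A (914 bases) and MT1X (1727 bases) it spanned the whole gene. A shorter main transcript would raise the value of a gene, so the order of genes below holds for this length only. On this scale SLC30A1 lay above every metallothionein but MT2A in A549 cells. In EA.hy926 cells it lay below all 3 measured metallothioneins, but the order of MT1X and SLC30A1 rested on CA replicate 4: over the other 3 CA libraries MT1X was at 16.9 CPM per kilobase and SLC30A1 at 23.5.

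CA replicate 4, from experiment 53, stood apart for these genes in both lines. In EA.hy926 cells its log2 level exceeded the mean of the other 3 CA libraries by 2.58 for MT1X, the largest such excess of all 10709 genes tested there. The excess was 1.58 for MT1E (rank 4), 0.89 for MT2A (rank 28) and 0.65 for SLC30A1 (rank 129), and MTF1 was lower by a log2 difference of -0.22. In A549 cells from the same insert the excess was 1.20 for MT1F (rank 17 of 11775), 0.88 for MT2A (rank 83), 0.64 for SLC30A1 (rank 256) and 0.56 for MT1X (rank 417). The median excess over all tested genes was 0.01 in EA.hy926 cells and 0.00 in A549 cells. Over all genes, Dixon's gap test at the 95% level placed it far above the other CA libraries for 0.831% of genes in EA.hy926 cells, the highest share of the 4 CA libraries (0.346% to 0.654% for the others), and for 0.374% in A549 cells (0.365% to 1.10% for the others). The 12 summed endothelial markers of the EA.hy926 libraries were at 3295 to 3633 CPM with SOANAP-SP, 3036 to 4049 CPM with SOAβPIN-SP and 2945 to 3734 CPM with SP, against 2548 to 3835 CPM with CA, and CA replicate 4 was the lowest. Their part in the results was not tested. Comparisons of the members with CA that rest on this library are given with and without it. CA replicate 4 was singled out by the levels of these same genes. Results without it therefore show how far a comparison depends on it and are not separate support.

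**Figure D1:**
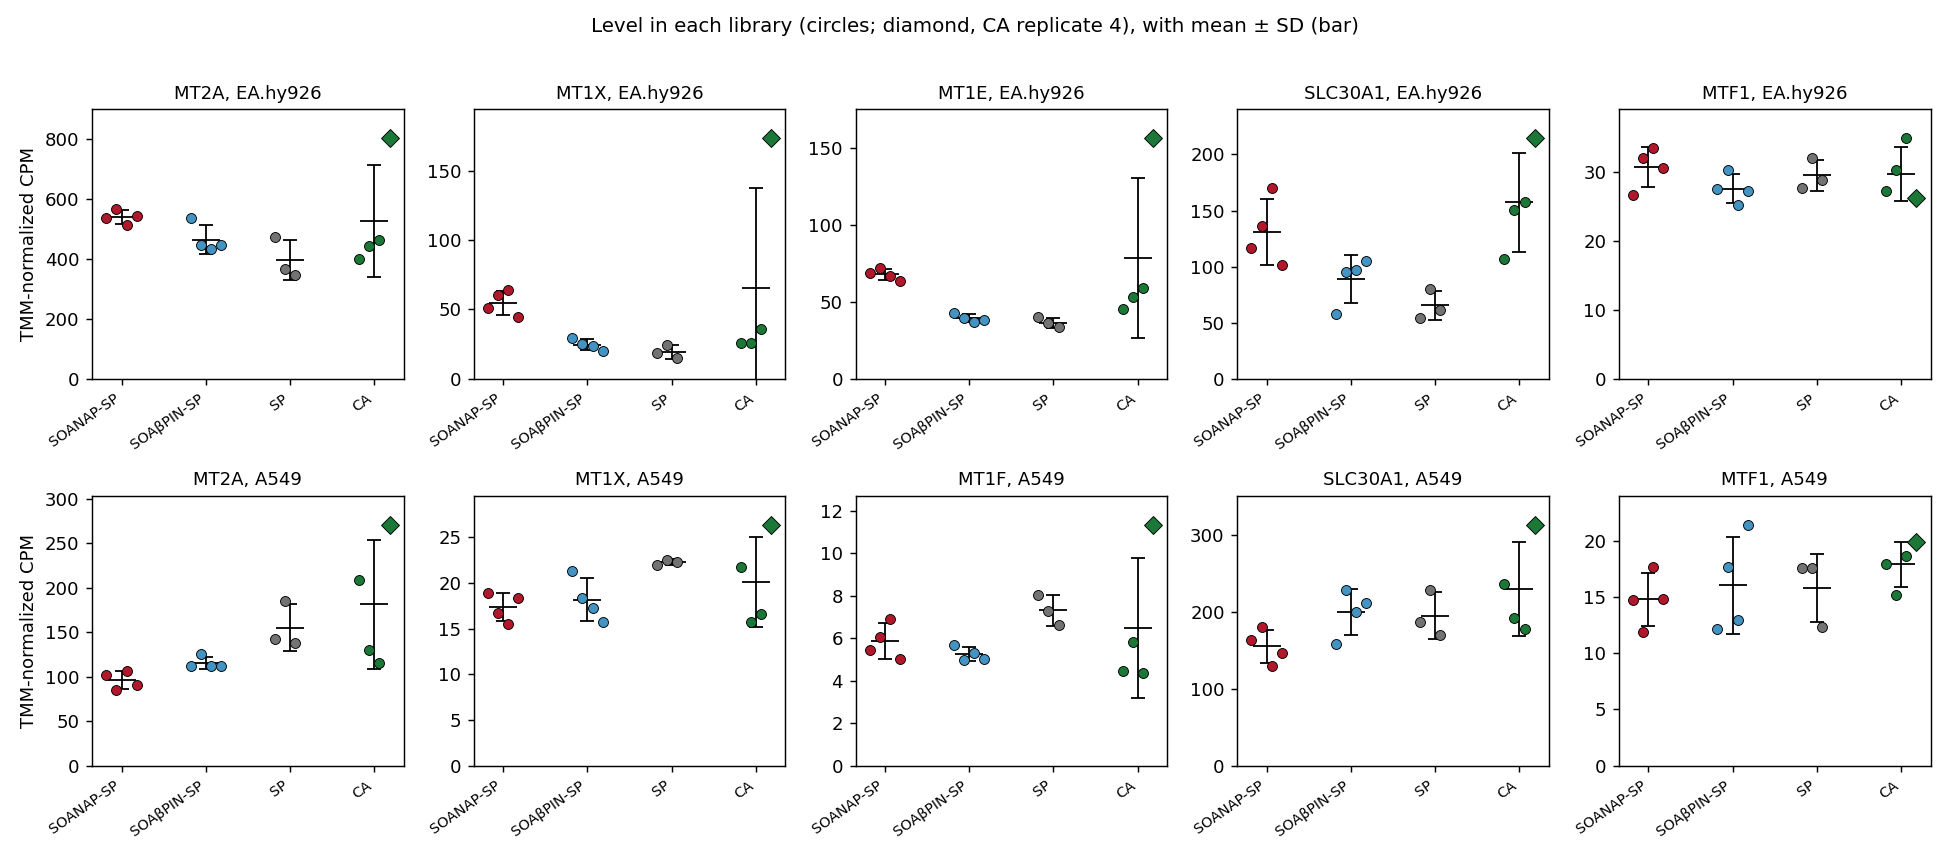
Levels of the tested genes in every library, in TMM-normalized CPM on linear axes from 0, with EA.hy926 cells in the upper row and A549 cells in the lower row. Points are libraries, the diamond is CA replicate 4, and bars are the mean ± SD (n = 4, or 3 for SP; the part of a bar below 0 is not drawn). In EA.hy926 cells CA replicate 4 lies at 173 CPM for MT1X while the other CA libraries lie at 25.6 to 35.9 CPM.

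In EA.hy926 cells, which did not face the aerosol, SLC30A1 and MT1E fell with SP and with SOAβPIN-SP, and MT1X had the same sign without passing the test. With SOANAP-SP no member passed the test against the 4 CA libraries. Against the other 3 CA libraries, picked after MT1X was seen to be high in CA replicate 4, MT1X was higher with SOANAP-SP. MTF1 did not pass the test with any aerosol. In bulk libraries of this kind, a lower share of cells with a transcript and less of it per cell cannot be told apart.

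SLC30A1 was at 117, 136, 170.2 and 101 CPM in SOANAP-SP libraries, 57.5, 94.8, 97.2 and 105 CPM in SOAβPIN-SP libraries and 54.5, 80.1 and 61.7 CPM in SP libraries, against 107, 151, 158 and 214 CPM in CA libraries. All SP and all SOAβPIN-SP libraries were below every CA library, and the SOANAP-SP libraries overlapped with CA. SLC30A1 fell with SP to 65.4 ± 13.2 CPM (SD, n = 3), against 158 ± 44.1 CPM in CA (SD, n = 4), a log2 fold change of -1.26 (SE 0.26, adjusted p = 0.00362). With SOAβPIN-SP it fell to 88.7 ± 21.3 CPM (SD, n = 4), a log2 fold change of -0.83 (SE 0.23, adjusted p = 0.0185). With SOANAP-SP the mean was 131 ± 29.8 CPM and the log2 fold change -0.27 (SE 0.23, adjusted p = 0.423), and did not pass the test. The fall with SP stayed past the threshold in all 18 alternative settings, with log2 fold changes of -1.43 to -1.08. The fall with SOAβPIN-SP was past it in 16 of 19 settings and lost without CA replicate 4 (-0.64, adjusted p = 0.0581).

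MT1E, a metal-binding metallothionein that was abundant only in this line, was at 69.0, 72.4, 67.0 and 63.9 CPM in SOANAP-SP libraries and 42.6, 39.7, 36.8 and 38.4 CPM in SOAβPIN-SP libraries. It was at 40.0, 36.0 and 33.4 CPM in SP libraries, against 45.5, 53.4, 58.8 and 157 CPM in CA libraries. Every SOAβPIN-SP and SP library was below every CA library, and every SOANAP-SP library was above 3 of the 4 CA libraries and below the fourth. MT1E fell with SOAβPIN-SP (log2 fold change -0.995, SE 0.31, adjusted p = 0.0360) and with SP (-1.10, SE 0.34, adjusted p = 0.0409). CA replicate 4 decided the size of both. Without it the log2 fold change was -0.41 with SOAβPIN-SP (SE 0.10, adjusted p = 0.00421), short of the 0.5 threshold, and -0.52 with SP (SE 0.10, adjusted p = 0.00149), still a DEG. Leaving out SOAβPIN-SP replicate 1, 2, 3 or 4 raised the adjusted p of the SOAβPIN-SP comparison to between 0.0663 and 0.0859, and leaving out SP replicate 1, 2 or 3 raised that of the SP comparison to between 0.0835 and 0.123. With SOANAP-SP the log2 fold change was -0.21 (SE 0.30, adjusted p = 0.659) with all CA libraries and 0.38 (SE 0.09, adjusted p = 0.00526) without CA replicate 4, under the fold threshold in both.

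MT1X, another metal-binding metallothionein, was at 51.1, 60.2, 63.7 and 44.4 CPM in SOANAP-SP libraries and 29.6, 25.3, 23.5 and 20.1 CPM in SOAβPIN-SP libraries. It was at 18.4, 24.5 and 15.1 CPM in SP libraries, against 26.1, 25.6, 35.9 and 173 CPM in CA libraries. All SP libraries were below all CA libraries, SOAβPIN-SP overlapped with CA, and SOANAP-SP lay between CA replicate 4 and the other 3. With all CA libraries the log2 fold change was -0.25 with SOANAP-SP (SE 0.53, adjusted p = 0.770), -1.41 with SOAβPIN-SP (SE 0.56, adjusted p = 0.0902) and -1.74 with SP (SE 0.62, adjusted p = 0.0711), and none was a DEG. Without CA replicate 4 MT1X rose with SOANAP-SP by a log2 fold change of 0.91 (SE 0.17, adjusted p = 6.34e-04), the direction opposite to that with all libraries. In that setting it fell with SP (-0.58, SE 0.19, adjusted p = 0.0420), and with SOAβPIN-SP the value was -0.25 (SE 0.17, adjusted p = 0.348). Leaving out CA replicate 1 or 2 instead made it a DEG with SOAβPIN-SP (adjusted p = 0.0474 and 0.0466) and with SP (adjusted p = 0.0418 and 0.0394).

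MT2A, the most abundant metallothionein of both lines, was at 537, 567, 513 and 544 CPM in SOANAP-SP libraries and 536, 446, 433 and 446 CPM in SOAβPIN-SP libraries. It was at 473, 368 and 348 CPM in SP libraries, against 400.4, 442, 464 and 804 CPM in CA libraries. Every aerosol overlapped with CA. The log2 fold changes were 0.03 with SOANAP-SP (SE 0.18, adjusted p = 0.912), -0.18 with SOAβPIN-SP (SE 0.18, adjusted p = 0.515) and -0.41 with SP (SE 0.19, adjusted p = 0.158). Once CA replicate 4 was left out, the SOANAP-SP libraries were all above the CA libraries, with a log2 fold change of 0.31 (SE 0.10, adjusted p = 0.0195), under the fold threshold. MTF1, the zinc sensor itself, ranged over 25.2 to 34.97 CPM in all 15 libraries, and its log2 fold changes were 0.05 with SOANAP-SP, -0.11 with SOAβPIN-SP and 0.00 with SP (SE 0.10 to 0.11). It was not a DEG in any comparison.

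Of the 5 tested members in EA.hy926 cells, 0 were DEGs with SOANAP-SP against CA, where 14.8% of all tested genes were DEGs, and 0 had an unadjusted p under 0.05. DESeq2 and limma-voom also called 0. With SOAβPIN-SP 2 of 5 were lower, against 11.2% of genes called and 6.14% called lower. With SP 2 of 5 were lower, against 9.83% called and 5.12% called lower. The libraries of 2 of 5 members with SOAβPIN-SP and 3 of 5 with SP lay wholly below CA, which was so for 12.1% and 13.1% of all genes. With CA replicate 4 left out the counts were 1 of 5 (higher) with SOANAP-SP, 0 of 5 with SOAβPIN-SP and 3 of 5 (lower) with SP, against 14.9%, 10.9% and 9.33% of genes called.

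Within a shared experiment, where each aerosol had 1 library and CA had 1, there is no error to set the difference against. In experiment 42 MT1X in EA.hy926 cells was at 51.1 CPM with SOANAP-SP and 35.9 CPM with CA, a log2 difference of 0.51, and SLC30A1 differed by -0.44. In experiment 38 SOAβPIN-SP differed from CA by -0.52 for SLC30A1, -0.47 for MT1E and -0.35 for MT1X. In experiment 53 SP differed from CA by -2.82 for MT1X, -2.11 for MT1E, -1.42 for SLC30A1 and -1.13 for MT2A. For the metallothioneins and SLC30A1 the signs in these single pairs were those of the comparison without CA replicate 4. CA replicate 4 is the control of the last pair, and the SP library of experiment 53 was not high: it was at 24.5 CPM for MT1X and 36.0 CPM for MT1E.

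**Figure D2:**
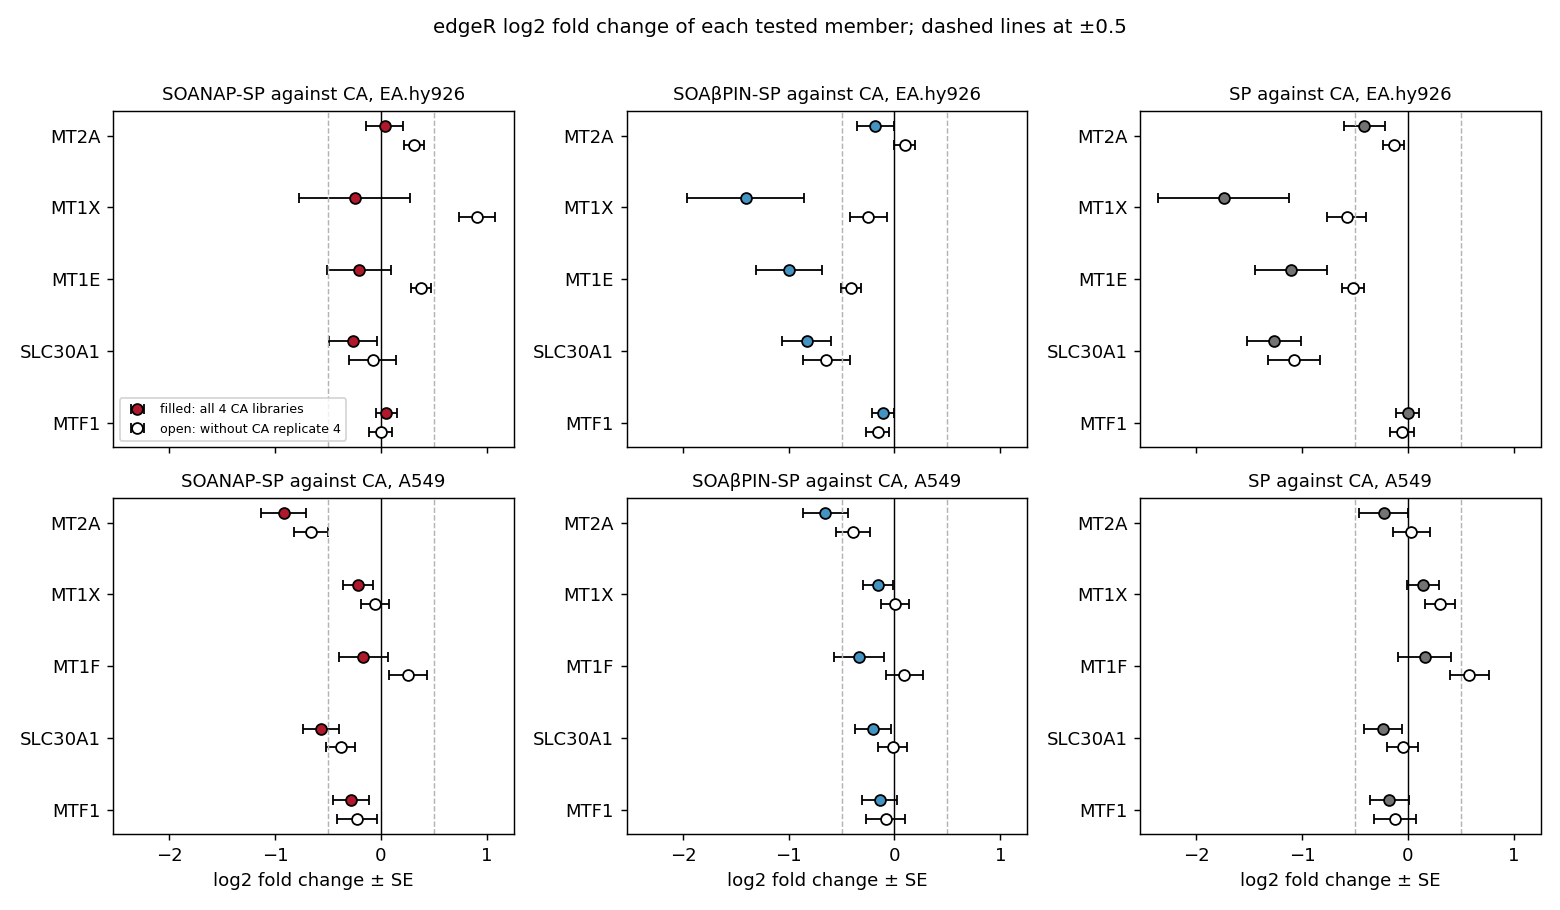
Log2 fold change ± SE (edgeR) of each tested gene with each aerosol against CA, with EA.hy926 cells in the upper row and A549 cells in the lower row. Filled points use all 4 CA libraries, open points leave out CA replicate 4, and dashed lines are at -0.5 and 0.5. MT1X with SOANAP-SP in EA.hy926 cells moves to 0.91 when the library is left out, and SLC30A1 with SP stays at -1.08.

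In A549 cells, the directly exposed line, MT2A fell with SOANAP-SP and with SOAβPIN-SP and SLC30A1 fell with SOANAP-SP. No member was a DEG with SP. MT1X, MT1F and MTF1 did not pass the test with any aerosol.

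MT2A was at 102, 85.0, 107 and 90.9 CPM in SOANAP-SP libraries, 112, 125, 112 and 112 CPM in SOAβPIN-SP libraries and 143, 185 and 138 CPM in SP libraries, against 209, 130.4, 116 and 271 CPM in CA libraries. All SOANAP-SP libraries were below all CA libraries, while SOAβPIN-SP and SP overlapped with CA. MT2A fell with SOANAP-SP to 96.1 ± 9.89 CPM, against 181 ± 72.1 CPM in CA (SD, n = 4 each), a log2 fold change of -0.92 (SE 0.22, adjusted p = 0.00501). It stayed a DEG in all 19 alternative settings, with log2 fold changes of -1.08 to -0.66, the smallest being the one without CA replicate 4 (adjusted p = 0.00641). With SOAβPIN-SP it fell (log2 fold change -0.65, SE 0.21, adjusted p = 0.0384), but it was a DEG in only 6 of 19 settings. That value was -0.39 (adjusted p = 0.101) without CA replicate 4, and leaving out CA replicate 1 or any 1 of the SOAβPIN-SP libraries gave adjusted p-values of 0.0576 to 0.0971. With SP the log2 fold change was -0.23 (SE 0.23, adjusted p = 0.600), and 0.03 (adjusted p = 0.942) without CA replicate 4.

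SLC30A1 was at 164, 180.1, 129.9 and 147 CPM in SOANAP-SP libraries, 158, 229, 201 and 211 CPM in SOAβPIN-SP libraries and 187, 229 and 169.9 CPM in SP libraries, against 237, 192, 177 and 313 CPM in CA libraries. Every aerosol overlapped with CA. It fell with SOANAP-SP, with a log2 fold change of -0.57 (SE 0.17, adjusted p = 0.0157). Without CA replicate 4 the value was -0.38 (SE 0.14, adjusted p = 0.0453), short of the fold threshold, and without SOANAP-SP replicate 3 it was -0.49 (adjusted p = 0.0511). With SOAβPIN-SP and SP the log2 fold changes were -0.20 (SE 0.17, adjusted p = 0.408) and -0.24 (SE 0.18, adjusted p = 0.459), and with CA replicate 4 left out -0.02 and -0.05.

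MT1X did not pass the test in A549 cells, at 15.6 to 18.9 CPM in SOANAP-SP libraries, 15.8 to 21.4 CPM in SOAβPIN-SP libraries and an average of 22.3 ± 0.295 CPM in SP libraries (SD, n = 3), against 15.7 to 26.4 CPM in CA libraries. MT1F, a metallothionein seen only in this line, was at 5.02 to 6.93 CPM with SOANAP-SP, 4.96 to 5.69 CPM with SOAβPIN-SP and 6.61 to 8.04 CPM with SP. In CA it was at 4.44, 5.83, 4.34 and 11.3 CPM, the last in CA replicate 4. Its log2 fold change with SP was 0.16 (SE 0.25, adjusted p = 0.758) with all CA libraries and 0.58 (SE 0.19, adjusted p = 0.0615) without that library. MTF1 ranged over 11.9 to 21.4 CPM, and its log2 fold changes against CA were -0.28 to -0.14 (SE 0.17 to 0.19).

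Of the 5 tested members in A549 cells, 2 were lower with SOANAP-SP, against 18.2% of all tested genes called and 11.3% called lower. With SOAβPIN-SP 1 of 5 was lower, against 13.2% called and 8.93% called lower. With SP 0 of 5 were called by edgeR, by DESeq2 and by limma-voom, and 0 had an unadjusted p under 0.05, against 5.99% of genes called. Leaving CA replicate 4 out gave 1 of 5 with SOANAP-SP, 0 of 5 with SOAβPIN-SP and 0 of 5 with SP, against 16.0%, 10.9% and 5.32% of genes called. The libraries of 1 of 5 members, MT2A, lay wholly below CA with SOANAP-SP, as did those of 17.8% of genes. In experiment 42 MT2A with SOANAP-SP differed from CA by a log2 difference of -0.18, in experiment 38 with SOAβPIN-SP by -0.22 and in experiment 53 with SP by -0.55. These MT2A pairs have the sign of the pooled comparison, and the first is smaller than its -0.92. The pair for SLC30A1 with SOANAP-SP, at -0.11, is smaller than the pooled -0.57. Pairs of other sign than the pooled value were SLC30A1 with SOAβPIN-SP (0.14), MT1X with SOANAP-SP (0.18) and with SP (-0.22), MT1X with SOAβPIN-SP (0.01), MT1F with SOANAP-SP (0.32) and with SP (-0.63), and MTF1 with SOAβPIN-SP (0.49).

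The summed level of the 12 endothelial markers in the A549 libraries was low and differed between exposures. It was at 4.90 to 6.91 CPM with SOANAP-SP, 5.95 to 7.96 CPM with SOAβPIN-SP and 6.78 to 11.2 CPM with SP, against 10.4 to 30.7 CPM with CA. ESAM, an adhesion molecule of endothelial junctions and the only marker of the list high enough to test there, averaged 3.73 CPM with SOANAP-SP, 5.38 CPM with SOAβPIN-SP and 6.99 CPM with SP, against 9.98 CPM with CA. The markers did not share a direction, since PECAM1 averaged 0.571, 0.578 and 0.469 CPM with these aerosols, against 0.269 CPM with CA. EMCN was at 0 in all 15 libraries, and 5 to 8 of the 12 markers were at 0 in each library but CA replicate 2, where 1 was. The summed level was highest in CA replicate 2, at 30.7 CPM, and not in CA replicate 4, at 14.5 CPM. Its part in the fall of MT2A and SLC30A1 was not tested.

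The response to SOANAP-SP differed between the lines for MT2A. Among the 4 members tested in both lines, the EA.hy926 response minus the A549 response was 0.95 for MT2A on the log2 scale (SE 0.30, adjusted p = 0.0266), from 0.03 in EA.hy926 cells and -0.92 in A549 cells. It was the 1 member of 4 called, against 13.4% of 9900 genes. Leaving out the CA inserts of replicate 1 (0.76, adjusted p = 0.109) or the SOANAP-SP inserts of replicate 2 (0.87, adjusted p = 0.0856) or 4 (0.92, adjusted p = 0.0646) ended the call. Without CA replicate 4 the difference was also called for MT1X, at 0.96 (adjusted p = 0.00318), against -0.04 (adjusted p = 0.971) with all libraries, and the difference in the response of MT1X to SP was called at -0.88 (adjusted p = 0.0295).

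For SOAβPIN-SP 0 of 4 members were called between lines, where 11.9% of genes were, and 0 had an unadjusted p under 0.05. For SP 0 of 4 were called, where 4.44% were, and 2 had an unadjusted p under 0.05. Limma-voom also called 0 for both. SLC30A1 had a difference of -1.02 (SE 0.33, adjusted p = 0.0720) and MT1X of -1.88 (SE 0.66, adjusted p = 0.101) with SP. The fall of SLC30A1 with SP in EA.hy926 cells, at -1.26, and its value in A549 cells, at -0.24, are thus not shown to differ. With the insert as a random block in limma-voom the SLC30A1 difference was -1.01 (adjusted p = 0.0474).

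Without aerosol the lines differed in most members. In CA, EA.hy926 cells were higher than A549 cells in MT2A by 1.29 on the log2 scale (SE 0.21, adjusted p = 5.16e-06) and in MT1X by 1.45 (SE 0.42, adjusted p = 0.00318), and lower in SLC30A1 by a log2 difference of -0.80 (SE 0.21, adjusted p = 0.00163). MTF1 differed by 0.48 (SE 0.14, adjusted p = 0.00227), under the fold threshold. These 3 DEGs of 4 stand against 63.2% of all genes. MT1X without CA replicate 4 differed by 0.44 (adjusted p = 0.0174) and was no longer called, and MTF1, at 0.59 (adjusted p = 0.00138), was. Without CA replicate 1 MTF1 was at 0.52 (adjusted p = 0.00537) and was called too. Line and side of the insert cannot be told apart.

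MT1E was found almost wholly in EA.hy926 cells and MT1F in A549 cells. MT1E had 3725 counts (77.8 CPM) over the EA.hy926 CA libraries and 5 counts (0.112 CPM, exact Poisson 95% interval 0.0364 to 0.262 CPM) over the A549 CA libraries, a ratio of 694, or 297 at the upper end of the interval. With SOAβPIN-SP and SP the A549 libraries had 0 MT1E counts. Set against 3 counts over the group, MT1E was at least 634-fold and 331-fold higher in EA.hy926 cells there, and 515-fold and 269-fold at the upper end of the exact interval. MT1F had 0 counts in all 15 EA.hy926 libraries, and 299 counts over the A549 CA libraries, at least 107-fold higher in A549 cells against 3 counts and 87.0-fold at the upper end of the interval. Intervals and limits of this kind cover counting error only. The CPM in these ratios were scaled within each line, while the line differences above were fitted with both lines scaled together.

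The 5 MT1E counts of the A549 CA group all came from CA replicate 2. That library also held 182 counts of ENG, a coreceptor abundant in endothelial cells, where the other 14 A549 libraries held 1 to 7. MT1E was at 27.5 counts per 1000 ENG counts in that library, and at 21.0 in the EA.hy926 library of the same insert. MT1A, the only other metallothionein with values here, was at 0 in all EA.hy926 libraries and at 0.636 to 2.17 CPM in A549 libraries, too low to test.

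Between aerosols no member was a DEG in any of the 6 comparisons. In EA.hy926 cells SOANAP-SP libraries were wholly above SP libraries for MT1X, MT1E, SLC30A1 and MT2A, as was so for 7.56% of genes. The log2 fold changes of SOANAP-SP against SP were 1.49 for MT1X (SE 0.62, adjusted p = 0.312), 0.90 for MT1E (SE 0.34, adjusted p = 0.264), 1.00 for SLC30A1 (SE 0.25, adjusted p = 0.0867) and 0.45 for MT2A (SE 0.19, adjusted p = 0.331). Of all genes 0.794% were called in this comparison. At the looser mark of an unadjusted p under 0.05 there were 4 of 5 members. The share of all genes at that mark was not counted, so 4 of 5 cannot be set against 0.794%.

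The spread in that fit came from all 4 groups, CA replicate 4 included. Fitted to the SOANAP-SP and SP libraries alone, MT1X (adjusted p = 0.00104), MT1E (adjusted p = 4.51e-04) and SLC30A1 (adjusted p = 0.0368) were higher with SOANAP-SP. DESeq2 called SLC30A1 alone (adjusted p = 0.0123). The 0.794% of genes called belongs to the fit over all 4 groups, and the share was not counted for these 2 settings. Against SOAβPIN-SP, SOANAP-SP libraries were wholly above for MT1X and MT1E, as for 4.08% of genes, with log2 fold changes of 1.16 (SE 0.56, adjusted p = 0.433) and 0.79 (SE 0.31, adjusted p = 0.303). In the fit to those 2 groups alone both were higher (adjusted p = 4.70e-04 and 2.23e-04). Of all genes 0.598% were called in that comparison in the fit over all 4 groups. The share in the fit to the 2 groups alone was not counted. SOAβPIN-SP and SP had 0 members called by edgeR, DESeq2 and limma-voom and 0 with an unadjusted p under 0.05 in EA.hy926 cells, where 0.00% of all genes were called. Their log2 fold change was 0.33 for MT1X (SE 0.62) and 0.11 for MT1E (SE 0.34), too wide to place the order of these 2 groups. SLC30A1 in EA.hy926 cells thus ran in mean level from SP through SOAβPIN-SP and SOANAP-SP to CA, with neighbours in that order not told apart except SOAβPIN-SP and SOANAP-SP at an unadjusted p of 0.0289, which did not survive adjustment (adjusted p = 0.315).

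In A549 cells MT2A ran in mean level from SOANAP-SP through SOAβPIN-SP and SP to CA. MT2A with SOANAP-SP was wholly below SOAβPIN-SP (log2 fold change -0.27, SE 0.22, adjusted p = 0.409) and wholly below SP (-0.69, SE 0.23, adjusted p = 0.0635), with 11.3% and 14.4% of genes wholly below in those comparisons and 7.48% and 7.13% called. The difference from SP was called in 4 of 17 alternative settings, among them DESeq2 (adjusted p = 0.0119) and the fit to the compared groups alone (adjusted p = 4.08e-04), and over the 17 settings the adjusted p ran from 4.08e-04 to 0.222. An unadjusted p under 0.05 was reached by 1 of 5 members between SOANAP-SP and SOAβPIN-SP, by 2 between SOANAP-SP and SP and by 0 between SOAβPIN-SP and SP. SOAβPIN-SP was wholly below SP for MT2A, MT1X and MT1F, as for 5.69% of genes, with log2 fold changes of -0.43, -0.30 and -0.49 (SE 0.15 to 0.26) and adjusted p-values of 0.473 to 0.535. Only 0.0679% of genes were called there.

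**Figure D3:**
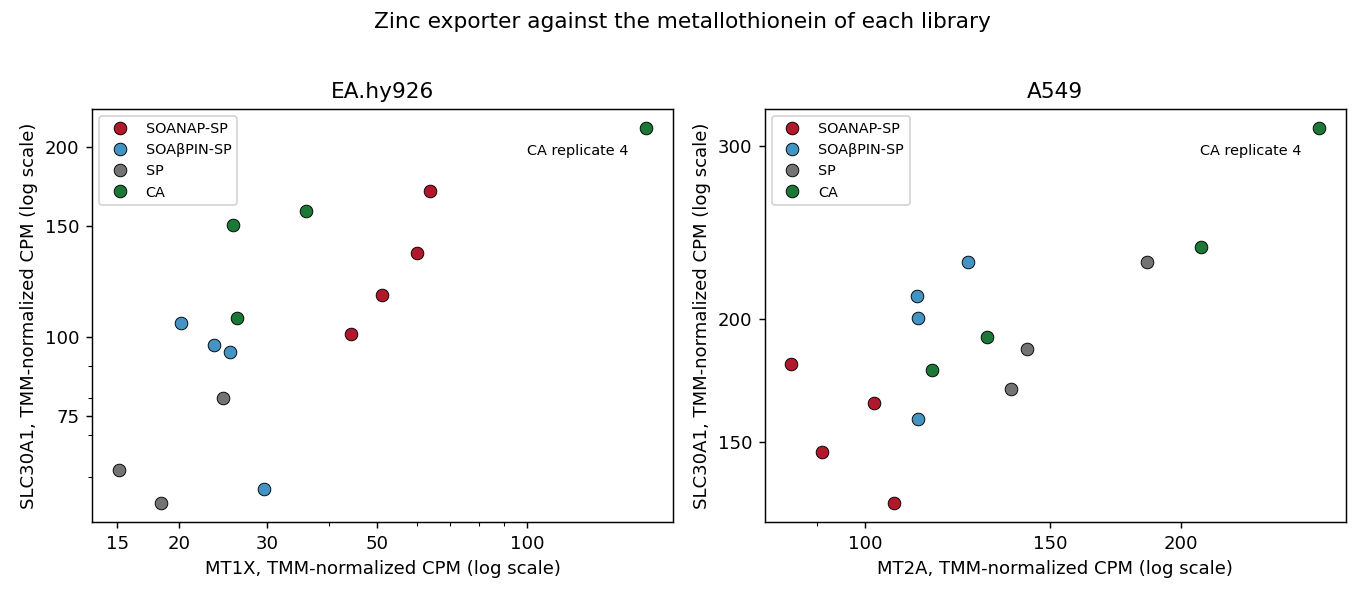
SLC30A1 against a metallothionein in every library, in TMM-normalized CPM on log axes: MT1X in EA.hy926 cells (left) and MT2A in A549 cells (right), coloured by exposure. In EA.hy926 cells the CA libraries other than replicate 4 lie at 107 to 158 CPM SLC30A1 with 25.6 to 35.9 CPM MT1X, and SOANAP-SP libraries at 101 to 170.2 CPM SLC30A1 with 44.4 to 63.7 CPM MT1X.

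Members varied together within a line to different degrees. Over the 15 EA.hy926 libraries the log2 levels of MT1E and MT1X had a Pearson correlation of 0.965, and 0.924 over the 14 without CA replicate 4. SLC30A1 correlated less closely with MT1X, at 0.746, and 0.655 without that library. The plot of SLC30A1 against MT1X shows SOANAP-SP to the right of the CA libraries other than replicate 4 at like SLC30A1 levels. In A549 cells MT2A and SLC30A1 correlated at 0.789, and 0.643 without CA replicate 4, and MT1F and SLC30A1 at 0.326 and -0.223. MTF1 correlated with MT1X at 0.0709 in EA.hy926 cells, or 0.448 without that library, and at 0.0413 in A549 cells, or -0.176. These libraries share exposures and are not independent draws, so the correlations are a description.

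The genes whose log2 level was most like the summed metallothioneins over the 15 libraries of a line were SELENOH (Pearson 0.873), POLM, PRR7, S100A2 and REXO2 (0.801) in EA.hy926 cells, and FSCN1 (0.952), IGFBP7, AC055839.2, TMEM59L and GLIPR1 (0.919) in A549 cells. Without CA replicate 4 the EA.hy926 correlations were 0.529 to 0.735 and the A549 ones 0.893 to 0.954. Those most like SLC30A1 were EIF2B2 (0.889), MAFIP, FAM32A, TXNRD1 and PITHD1 (0.848) in EA.hy926 cells, and ITPRIP (0.936), PHTF1, F2RL1, CCDC50 and SOCS2 (0.864) in A549 cells. They were the highest of 10704 and 11770 genes, and nothing follows from the likeness about shared control.

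Among the other zinc transporters 1 was a DEG against CA. The SLC30 family moves zinc out of the cytosol, with SLC30A1 at the cell surface and most others at internal membranes, and the SLC39 family moves zinc into it. Of the other SLC30 genes 5 were tested in EA.hy926 cells and 6 in A549 cells, and edgeR called 0 with any aerosol against CA. Of all genes 14.8%, 11.2% and 9.83% were called with SOANAP-SP, SOAβPIN-SP and SP in EA.hy926 cells. In A549 cells 18.2%, 13.2% and 5.99% were. The same shares apply to the importers and to the copper and iron genes below. An unadjusted p under 0.05 was reached by 3, 1 and 2 of the 5 with SOANAP-SP, SOAβPIN-SP and SP in EA.hy926 cells, and by 1, 0 and 0 of the 6 in A549 cells. Their median log2 fold change was 0.03 with SOANAP-SP, 0.05 with SOAβPIN-SP and -0.06 with SP in EA.hy926 cells, and -0.07, 0.06 and -0.07 in A549 cells. The median of all tested genes was -0.02 to 0.01. SLC30A6, a Golgi transporter, came closest, with -0.49 (SE 0.10, adjusted p = 0.00107) for SOANAP-SP in A549 cells and -0.35 (SE 0.11, adjusted p = 0.0168) in EA.hy926 cells, both under the fold threshold and chosen after their values were seen. With CA replicate 4 left out they were -0.47 (adjusted p = 0.00423) and -0.30 (adjusted p = 0.0513).

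Of 11 SLC39 importers tested in each line, the single DEG in the 6 comparisons with CA was SLC39A10, an importer of the plasma membrane, which rose with SP in EA.hy926 cells. It was at 23.3 to 28.4 CPM with SP, against 12.4 to 21.0 CPM with CA, a log2 fold change of 0.52 (SE 0.16, adjusted p = 0.0244). The value was 0.37 (adjusted p = 0.0647) without CA replicate 4. The median over the importers was 0.07, -0.05 and -0.06 for SOANAP-SP, SOAβPIN-SP and SP in EA.hy926 cells, and 0.01, -0.02 and 0.03 in A549 cells.

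**Figure D4:**
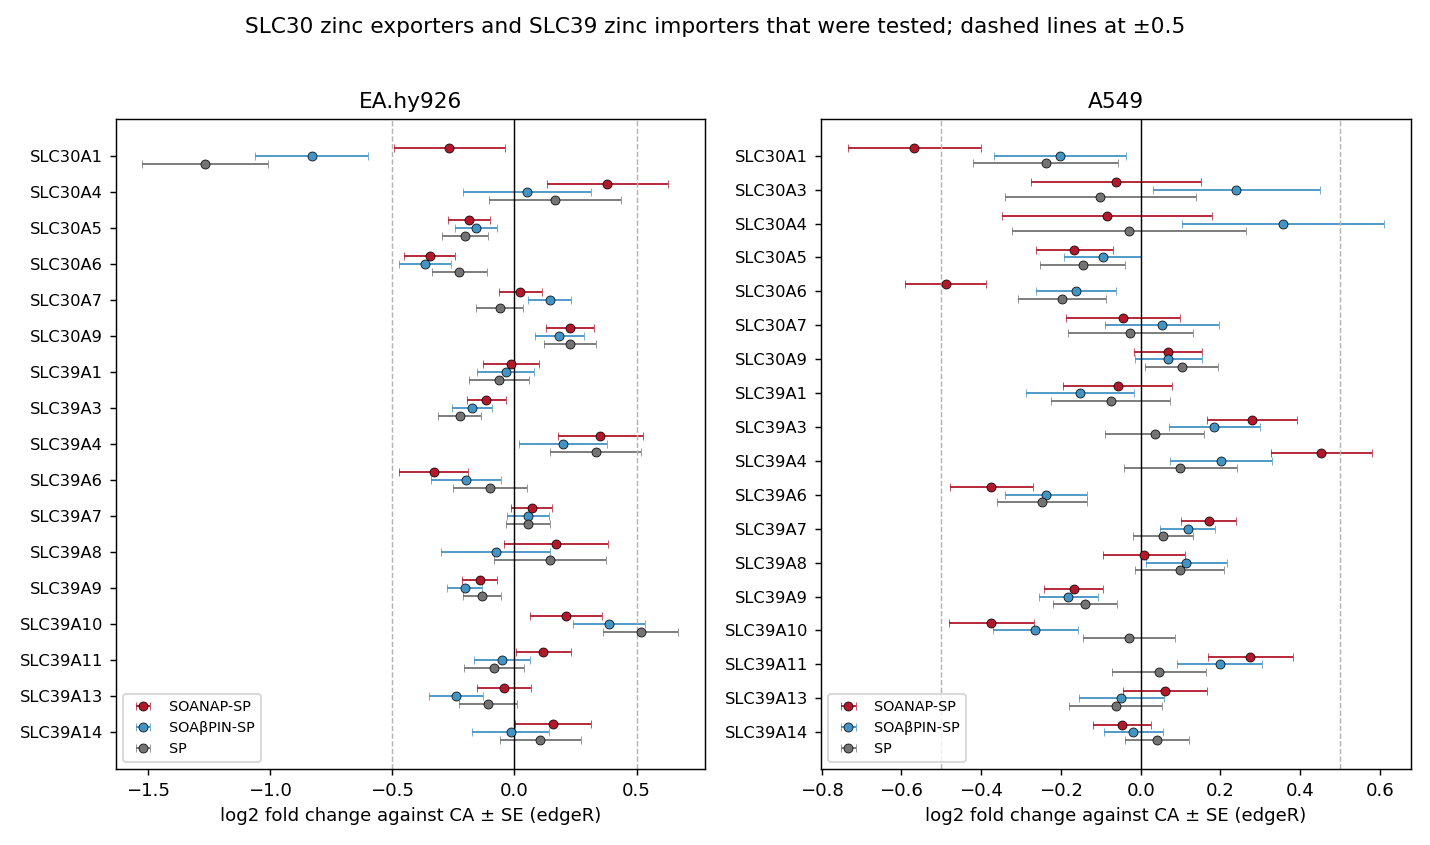
Log2 fold change against CA ± SE (edgeR) of SLC30A1, the other tested SLC30 exporters and the tested SLC39 importers, with EA.hy926 cells on the left and A549 cells on the right, coloured by aerosol, and dashed lines at -0.5 and 0.5. SLC30A1 with SP lies at -1.26 in EA.hy926 cells and with SOANAP-SP at -0.57 in A549 cells, SLC39A10 with SP at 0.52 in EA.hy926 cells, and the other transporters lie within the dashed lines.

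Genes that handle copper, which metallothioneins also bind, had 0 DEGs by edgeR with any aerosol against CA among 9 tested in EA.hy926 cells and 10 in A549 cells, where 1 and 3 to 4 in each comparison had an unadjusted p under 0.05. Among genes of iron handling 0 of 11 were DEGs by edgeR in EA.hy926 cells, with 1, 3 and 4 at an unadjusted p under 0.05 for SOANAP-SP, SOAβPIN-SP and SP. There HMOX1 had wide errors, at -1.51 with SOAβPIN-SP (SE 0.54, adjusted p = 0.0619) and -1.64 with SP (SE 0.59, adjusted p = 0.0744). Leaving out CA replicate 4 moved them to -0.70 (adjusted p = 0.239) and -0.84 (adjusted p = 0.211), and made SLC11A2, an iron importer, a DEG with SP (0.51, adjusted p = 0.0456), a gene named after its value was seen. In A549 cells HMOX1, the heme-degrading oxygenase, fell with SOANAP-SP (-0.77, SE 0.13, adjusted p = 1.62e-04) and with SP (-0.54, SE 0.14, adjusted p = 0.0172), IREB2, which senses iron, fell with SOANAP-SP (-0.53, SE 0.09, adjusted p = 2.06e-04), and TFRC, the transferrin receptor, rose with SOAβPIN-SP (0.53, SE 0.09, adjusted p = 2.45e-04). The other 10, 11 and 11 of 12 iron genes were not DEGs with SOANAP-SP, SOAβPIN-SP and SP. Of all genes 18.2%, 13.2% and 5.99% were called in these comparisons, so the iron genes were called about as often as genes in general. TFRC was at 0.48 (adjusted p = 0.00158) and under the fold threshold with CA replicate 4 left out, while HMOX1 and IREB2 stayed DEGs.

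Glucocorticoid-responsive genes were counted because metallothioneins share that signal. Of 11 tested in EA.hy926 cells, 6 rose with SOANAP-SP, 6 rose with SOAβPIN-SP and 5 rose with SP, and KLF9, named after its value was seen, fell with SP (-1.04, SE 0.30, adjusted p = 0.0186). Of all genes 6.26%, 5.04% and 4.72% were called higher in these comparisons. With CA replicate 4 left out, 6, 5 and 3 of the 11 were higher and KLF9 was still lower with SP. KLF9 was low in EA.hy926 cells, at a mean of 1.22 CPM with SP against 2.58 CPM with CA, close to the count filter. Which group carried KLF9 past the filter was not examined, and passing it through CA would favour a fall. ERRFI1, a feedback inhibitor of the EGF receptor, had log2 fold changes of 2.93, 2.68 and 2.54 with SOANAP-SP, SOAβPIN-SP and SP (SE 0.14 to 0.15), and NFKBIA, the inhibitor of NF-kB, 1.54, 1.38 and 1.46 (SE 0.11). ZFP36, which destabilizes inflammatory transcripts, rose by 1.54, 0.95 and 0.52, the last of which was lost (0.44, adjusted p = 0.108) with CA replicate 4 left out. FKBP5 (0.11, 0.23 and 0.18) and TSC22D3 (0.31, 0.04 and -0.26), also on the list, were under the fold threshold in EA.hy926 cells. They were named after their values were seen. In A549 cells 4 rose and 1 fell with SOANAP-SP, 1 rose and 3 fell with SOAβPIN-SP, and 1 rose and 1 fell with SP. Of all genes there 6.92%, 4.31% and 2.02% were called higher and 11.3%, 8.93% and 3.97% lower. With CA replicate 4 left out the counts were 5 and 1, 1 and 2, and 1 and 0. In these cells CRISPLD2 was lower with every aerosol (-1.05, -1.79 and -1.10, the SP call being lost without CA replicate 4, at -1.05, adjusted p = 0.0656) while NFKBIA rose (1.08, 1.36 and 0.85). The highest CRISPLD2 counts were 29, 18 and 17 with SOANAP-SP, SOAβPIN-SP and SP and 48 with CA. CRISPLD2 thus met the count filter through CA libraries alone, at a mean of 3.54 CPM there. The filter favoured a lower value with aerosol, so its falls, counted above, are no support. ZFP36 was at 1.39, 0.36 and 0.15 in A549 cells with SOANAP-SP, SOAβPIN-SP and SP. There TSC22D3 was at 0.21, -0.98 and -0.51, FKBP5 at 0.04, 0.19 and 0.07, and DUSP1, also of the list, at 0.47, -0.62 and 0.02. These too were named after their values were seen. Several of these genes also answer to other signals, and which signal moved them was not tested.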

How the data were processed

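RNA of EA.hy926 and A549 cells was sequenced in 30 libraries, 15 for each line. The authors deposited raw counts per gene, made with bcl2fastq 2.20.0.422, cutadapt, STAR 2.7.3a and HTSeq in its intersection-strict mode on uniquely mapped reads, after removal of duplicates by molecular identifier. They also deposited a normalized signal, which is the count divided by a DESeq2 1.26.0 size factor. The methods give GRCh38, while the submitters' processing notes list GRCm38. Whether counting used strand is not given in the sources used here. No source names the sequencing batch, so no batch term was fitted. The number of per-sample columns left unused was 0.

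For each line, genes with at least 30 counts in at least 3 libraries (11775 in A549, 10709 in EA.hy926) were fitted over all 4 groups with edgeR 4.0.16 (TMM, estimateDisp, glmQLFit with robust = TRUE, glmQLFTest) in R 4.3.3, and p-values were adjusted by the Benjamini-Hochberg method over all tested genes. SE was derived from the F statistic and the log2 fold change, and log2 levels used a prior count of 2. The line difference was fitted over the 9900 genes tested in both lines. Scripts were tested on simulated data with known changes. Median depth was 10994569 counts in A549 cells and 11587789 in EA.hy926 cells.

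Alternatives were DESeq2's size factors, library totals alone, no low-count filter, a filter of 30 CPM in 3 libraries, limma-voom (limma 3.58.1), DESeq2 1.42.0, the compared groups alone, the replicate number as a block, the experiment as a random block, the insert as a random block for the line difference, the deposited normalized signal as log2(value + 1) in limma, and each library left out. Leaving out experiment 53, and giving results without CA replicate 4 beside the main ones, were chosen after seeing the data. Replicate numbers paired samples only for SOAβPIN-SP against SP in A549 cells (correlation of deviations 0.260 to 0.395), where the block changed no call. None of the 42 replicate pairs agreed within counting noise (lowest chi-square per degree of freedom 5.15). Replicates of an exposure came from separate experiments, so p-values measure the spread between experiments.

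The genes and lists were chosen with earlier results of these data known. The genes named from a list were the 3 with the largest absolute log2 fold change against CA in a line, and other named genes are said to be so. Gene positions and exon lengths came from GENCODE's GRCh38 annotation and promoters from RefSeq. Figures were drawn with Python 3.11.15 and matplotlib 3.10.9.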

Additional observations from a re-analysis of the deposited data

Results flagged for a closer look

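In groups of 4 libraries, 7 of 32 groups of a member had a library far from the other 3 by Dixon's gap test. Chance gives about 1 in 20 for independent groups of normally spread values. These groups share libraries and some held almost only 0 counts, so their share cannot be set directly against that rate. The gap divided by the range of the group was 0.930 for MT1X, 0.881 for MT1E and 0.842 for MT2A in EA.hy926 CA replicate 4, all high. It was 0.876 for MT2A in EA.hy926 SOAβPIN-SP replicate 1 and 0.966 for MT2A in A549 SOAβPIN-SP replicate 2, both high, although those 2 libraries lay at 536 CPM against 433 to 446 CPM, and at 125 CPM against 112 CPM in the others. It was 1 for MT1E in A549 SOANAP-SP replicate 4 (1 count) and in A549 CA replicate 2 (5 counts), where the other libraries of the group had 0.

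The response of MT2A to SOANAP-SP differed between the lines, at 0.95 for EA.hy926 minus A549 on the log2 scale in edgeR's quasi-likelihood test (SE 0.30, adjusted p = 0.0266).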

How the results depend on the processing

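Of 1218 alternative values, 1150 changed no call, 43 lost and 22 gained the threshold, and 3 reversed, which means a change of sign with a call before or after. Values called in neither fit could change sign and still be among the 1150. MT1E with SOANAP-SP against CA in EA.hy926 cells, never past the threshold, ran from -0.40 to 0.38. The reversed values were MT1X with SOANAP-SP against CA in EA.hy926 cells (0.91 without CA replicate 4, 0.90 without experiment 53) and the line difference of that response (0.96 without CA replicate 4). The cause of these changes was not tested.

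Counts of members called moved as follows. In A549 cells SOAβPIN-SP against CA, 1 in the main result, was 0 with no filter, limma-voom, the compared groups alone, the replicate block, the experiment block, the normalized signal and without experiment 53. SOANAP-SP against CA, 2, was 1 without experiment 53, and SOANAP-SP against SP, 0, was 1 with library totals, the CPM filter, DESeq2 and the compared groups alone. In EA.hy926 cells SOAβPIN-SP against CA, 2, was 0 with no filter and without experiment 53, and 1 with limma-voom, the compared groups alone, the replicate block, the experiment block and the normalized signal. SP against CA, 2, was 1 with no filter, limma-voom, the compared groups alone, the replicate block and the experiment block, and 3 with the CPM filter and without experiment 53. SOANAP-SP against CA, 0, was 1 without experiment 53, SOANAP-SP against SOAβPIN-SP, 0, was 2 with the compared groups alone, and SOANAP-SP against SP, 0, was 1 with the CPM filter, 1 with DESeq2 and 3 with the compared groups alone. The line difference with SP, 0, was 1 with the insert block. The share of all genes called was not counted for the compared groups alone.

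With each library left out, counts ran from 1 to 2 for SOANAP-SP and 0 to 1 for SOAβPIN-SP against CA in A549 cells, and 0 to 1, 0 to 3 and 1 to 3 for SOANAP-SP, SOAβPIN-SP and SP in EA.hy926 cells. They ran from 0 to 2 and 0 to 1 for the line difference with SOANAP-SP and SP, and 3 to 4 for the lines in CA. MT1X with SOANAP-SP in EA.hy926 cells ran from -0.52 (without CA replicate 1) to 0.91 (without CA replicate 4), and its line difference from -0.35 to 0.96 without the same libraries. The replicate numbers did not pair the samples elsewhere, so the replicate block is only a setting.

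Library totals in place of TMM shifted the median log2 fold change of all A549 genes by -0.12 and -0.15 for SOANAP-SP against SOAβPIN-SP and SP, and turned 815 higher and 1333 lower calls against CA into 524 and 1744. The CPM filter left 2 members to test in A549 cells. MT1F, at 41 to 141 counts, has the least depth of the tested members.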
